A study of Rattus norvegicus with 6 samples.

Results

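Thrombospondins are large secreted glycoproteins of the extracellular matrix. In the central nervous system astrocytes release them, and thrombospondin 1 (TSP1) makes cultured retinal ganglion cell neurons (RGCs) form synapses that look complete but lack AMPA glutamate receptors. The neuronal receptor for this effect is α2δ1, an auxiliary subunit of voltage-gated calcium channels and the target of the drug gabapentin, and thrombospondins also bind CD47, CD36, the endocytic receptor LRP1 and integrins that contain the β1 chain. The genes described here encode 3 thrombospondins (Thbs2, Thbs3, Thbs4), 3 α2δ subunits (Cacna2d1, Cacna2d2, Cacna2d3) and 4 other receptors (Cd47, Cd36, Lrp1, Itgb1). They were taken by name, and every probe set, a group of short array probes for 1 transcript, that the array annotation assigns to a single such gene was used. This gave 12 probe sets for 9 of the 10 genes, out of 31042 probe sets in all and 14217 named genes. Cacna2d2 had no probe set of its own and was not measured. Cd36 shares a further probe set with another gene, and that probe set was left out. Thbs1, the gene for TSP1 itself, was not analysed here.

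RNA was measured on 6 Affymetrix rat genome arrays, 2 per group. The TSP1 group was given recombinant mouse TSP1 protein at 0.25 µg/ml for 12 h, the Gpc4 group was given rat glypican 4 protein, made with a His tag in a human kidney cell line and purified, for 12 h, and the Alone group was untreated. All groups were RGCs of Sprague Dawley rat pups purified by immunopanning, labelled as postnatal day 6 neurons kept 12 days in medium with BDNF and CNTF, and each array carried the RNA of 2 pooled wells. The experiment was done on 2 separate RGC cultures, and the labels number the arrays of each group 1 and 2. They do not say that equal numbers share a culture. The number was read as the culture because same-numbered arrays deviated together (correlations of 0.29 to 0.37). Culture 1 and culture 2 are used here in that sense. The values are log2 RMA expression values, which are normalized between arrays, and array medians ran from 5.96 to 5.99. Without detection calls, a value under these medians is not shown to exceed background. Where the values of a group's 2 arrays are given, that of culture 2 comes before that of culture 1. Probe sets also differ in how well they bind their target, so the level of a gene is compared here only with itself on other arrays.

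The arrays carried the signal of RGCs. Of 12 listed RGC markers 9 were measured, and their mean log2 value lay between 11.56 and 11.65 on every array, with no marker changed by either protein. Arrays of the same group differed by a median of 0.10 to 0.11 on the log2 scale. The groups were compared with limma, a linear model that shares its estimate of the spread across probe sets, and a change means a p-value under 0.05 after Benjamini-Hochberg adjustment over all 31042 probe sets. With 2 arrays a group, the number of arrays limits the precision. In RNA from whole cultures, fewer cells of a type and less RNA per cell cannot be told apart.

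The first question was whether RGCs change the mRNA of thrombospondins or of their receptors when TSP1 is added. None of the 12 probe sets changed with TSP1 (0% of all probe sets did; limma). At an unadjusted p under 0.05 the count was also 0 of 12 (4.4% of all probe sets), and with the culture as a replicate block 0 of 12 passed (0.0129% of all probe sets). The differences between TSP1 and Alone lay between -0.25 (Thbs3) and 0.16 (Cd36) on the log2 scale, with standard errors between 0.09 and 0.38. Of the 12 probe sets 3 had a difference above 0 and 9 below 0, with a median of -0.11, where all probe sets had a median of -0.005. The 2 groups did not overlap in 5 of 12 probe sets, all 5 lower with TSP1. Of all probe sets 29.8% did not overlap, 15.6% with TSP1 the lower.

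**Figure D1:**
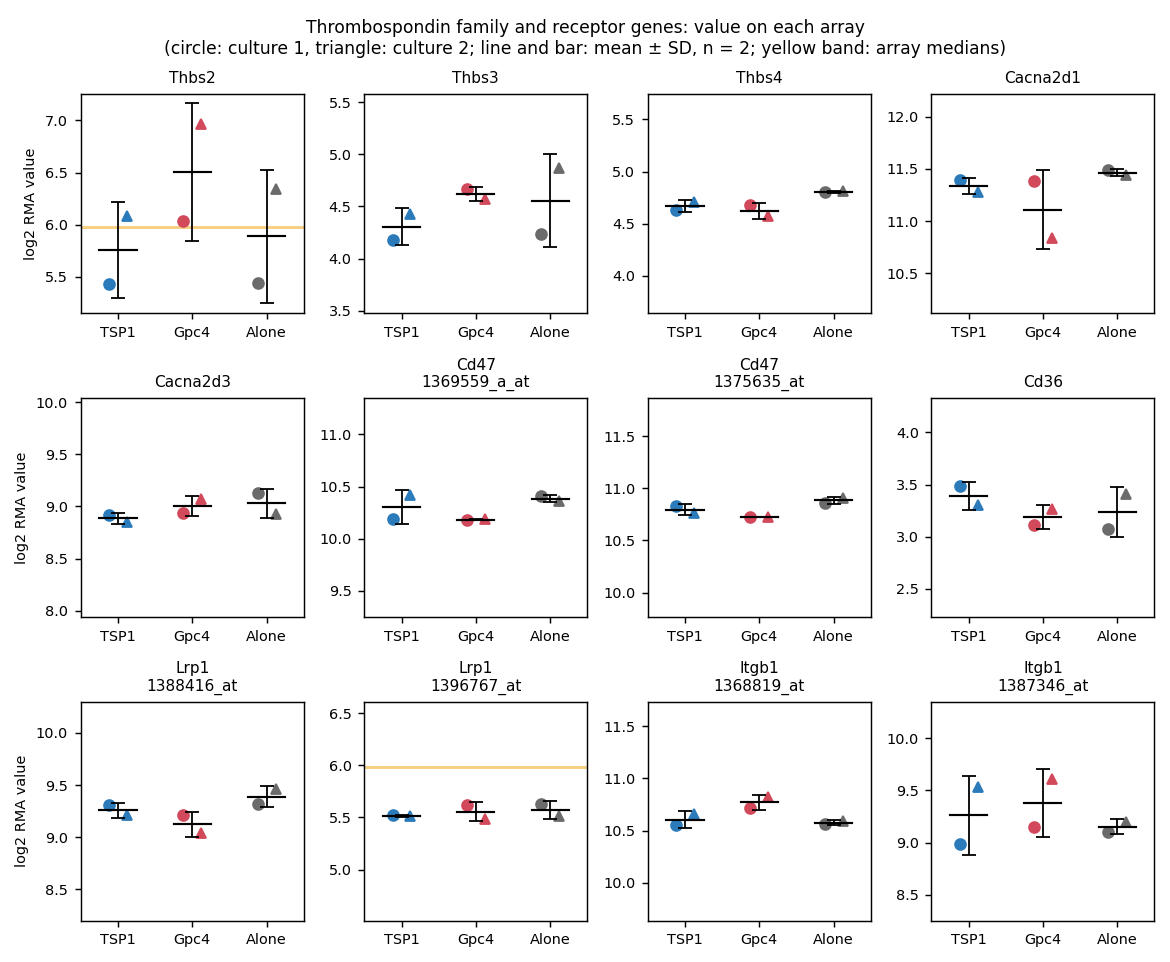
Log2 RMA value (y axis) of each of the 12 probe sets on each array, in TSP1, Gpc4 and Alone. Circles are culture 1, triangles culture 2, lines the means and bars the SD (n = 2). Every panel spans the same log2 range, and the yellow band marks the array medians of 5.96 to 5.99. Thbs2 shows the widest scatter, with every triangle above the circle of its group.

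The α2δ subunits are anchored to the outer face of the membrane and set how many calcium channels reach it. Cacna2d1, which encodes the TSP1 receptor α2δ1, had log2 values of 11.28 and 11.39 with TSP1, 10.84 and 11.38 with Gpc4 and 11.44 and 11.49 in Alone. It was thus far above the array medians on all 6 arrays, and the Gpc4 array of culture 2 was the lowest by a wide margin. The TSP1 and Alone arrays did not overlap, but the difference of -0.13 (standard error 0.16, 95% interval -0.51 to 0.25) had an adjusted p = 0.986 from limma. Within the cultures it was -0.16 in culture 2 and -0.10 in culture 1. With Gpc4 the difference from Alone was larger in size, at -0.36 (standard error 0.16, 95% interval -0.74 to 0.03, adjusted p = 0.747 from limma), and it was uneven, with -0.60 in culture 2 and -0.11 in culture 1. Without Gpc4 replicate 2 it was -0.09, and without Gpc4 replicate 1 it was -0.63. TSP1 arrays stood 0.23 above Gpc4 arrays (95% interval -0.16 to 0.61), and this difference did not pass either (adjusted p = 0.995 from limma). It was 0.44 in culture 2 and 0.01 in culture 1, and without Gpc4 replicate 2 it was -0.05, with the sign turned, while without Gpc4 replicate 1 it was 0.50.

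Cacna2d3, which encodes the subunit α2δ3, had log2 values of 8.85 and 8.92 with TSP1, 9.07 and 8.94 with Gpc4 and 8.93 and 9.13 in Alone. All 6 arrays lay within a range of 8.85 to 9.13, and the 2 TSP1 arrays were the lowest. The differences from Alone were -0.15 with TSP1 (95% interval -0.39 to 0.10) and -0.03 with Gpc4 (95% interval -0.27 to 0.22), and neither passed (adjusted p of 0.985 and 0.986 from limma).

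The genes whose values followed those of Cacna2d1 most closely over the 6 arrays, among 9342 named genes averaging 6 or more on the log2 scale, were Carmil3 (Pearson r = 0.99), Slx4 (0.99) and Ndel1 (0.99). Carmil3 ranged only from 8.25 to 8.48 and Slx4 from 7.27 to 7.43. In all, 215 genes reached an r of 0.9, so with 6 arrays that share 2 cultures such a likeness is common, and it is given as a description.

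The promoters of the receptors differ in a feature that the array does not measure. CpG dinucleotides are dense at the start sites of many broadly used genes and sparse at those of many genes limited to certain cell types. In the RefSeq promoter windows of the rat genome (build GRCr8, 250 bases before to 50 after each start), 33469 windows had a median of 7 CpG. Cacna2d3 had 42, Cacna2d1 had 36 to 41 over its 3 start sites, Cd47 had 38, Itgb1 had 35, Thbs4 had 23, Lrp1 had 16, Thbs3 had 8 and Cd36 had 4. Cacna2d2, which was not measured, had 44, and Thbs2 has no entry among these windows. A CpG-dense window, that of the gene for the TSP1 receptor, and the window with the fewest CpG are shown, with each CpG in capitals. The Cacna2d1 window is the most upstream of its start sites, chr4:20330098-20330397 on the minus strand, and the Cd36 window is chr4:18246332-18246631 on the plus strand.
Cacna2d1: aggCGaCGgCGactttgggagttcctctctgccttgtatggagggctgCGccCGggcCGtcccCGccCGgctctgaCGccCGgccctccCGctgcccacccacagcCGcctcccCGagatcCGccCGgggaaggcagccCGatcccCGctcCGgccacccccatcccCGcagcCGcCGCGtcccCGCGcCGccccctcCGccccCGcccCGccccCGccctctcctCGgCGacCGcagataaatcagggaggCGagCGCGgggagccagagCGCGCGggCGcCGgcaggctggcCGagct
Cd36: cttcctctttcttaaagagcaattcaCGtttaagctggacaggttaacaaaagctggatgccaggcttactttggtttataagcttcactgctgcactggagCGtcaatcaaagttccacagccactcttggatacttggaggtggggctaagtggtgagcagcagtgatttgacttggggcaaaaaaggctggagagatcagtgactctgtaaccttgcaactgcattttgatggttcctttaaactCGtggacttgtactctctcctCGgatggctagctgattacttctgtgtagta
The Cacna2d1 window had more CpG than 97.2% of all windows, and the Cd36 window more than 30.7% of them. These counts describe the sequence only, and no binding or methylation was measured.

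**Figure D2:**
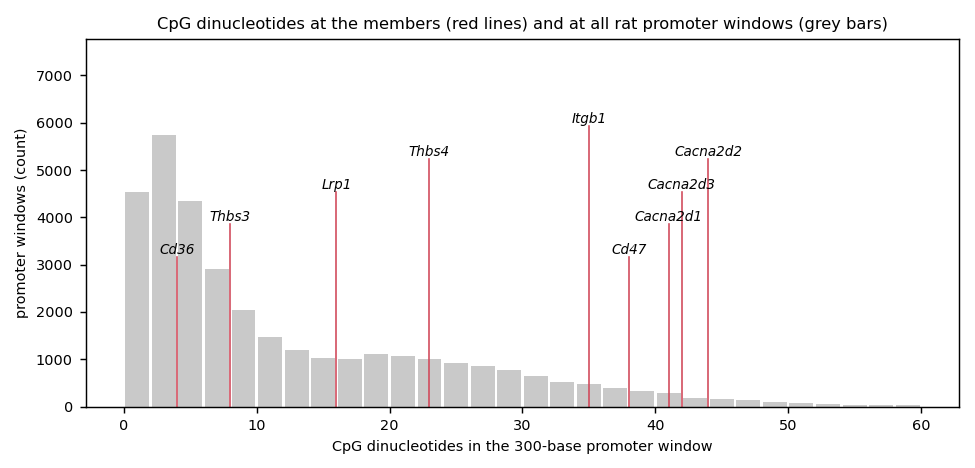
Number of CpG dinucleotides (x axis) in 300-base promoter windows of the rat genome. Grey bars count all 33469 windows in steps of 2 CpG, and red lines mark the 9 genes with a window, at the start site with the most CpG. Cd36 stands at 4 and Cacna2d1 at 41, where the median of all windows is 7.

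Cd47 encodes an integrin-associated protein that binds the C-terminal part of thrombospondins. Both of its probe sets lay above the array medians on every array. The probe set 1375635_at had log2 values of 10.76 and 10.83 with TSP1, 10.72 on both Gpc4 arrays and 10.91 and 10.86 in Alone. The probe set 1369559_a_at had 10.42 and 10.19 with TSP1, 10.19 and 10.18 with Gpc4 and 10.36 and 10.41 in Alone. The 2 probe sets gave similar differences, of -0.17 and -0.20 with Gpc4 against Alone and of -0.09 and -0.08 with TSP1 against Alone. With Gpc4 both were lower in each culture, by 0.14 to 0.23 on the log2 scale, and the Gpc4 arrays did not overlap with Alone in either. Neither passed (adjusted p = 0.763 for each with Gpc4, limma). With TSP1 the second probe set went opposite ways, 0.06 in culture 2 and -0.22 in culture 1.

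Lrp1 encodes a large receptor of the LDL receptor family that takes up thrombospondins and, with cell-surface calreticulin, relays their signal. Its probe set 1388416_at had log2 values of 9.21 and 9.31 with TSP1, 9.04 and 9.21 with Gpc4 and 9.46 and 9.32 in Alone. Gpc4 arrays were the lowest of their culture in both cultures and did not overlap with Alone. The difference between Gpc4 and Alone was -0.27 (standard error 0.10, 95% interval -0.50 to -0.03), with -0.42 in culture 2 and -0.11 in culture 1. In the fit without the replicate block, it was the only one of the 36 differences between groups whose interval left out 0. It did not pass over all probe sets (adjusted p = 0.709 from limma). With the block, the unadjusted p was also under 0.05 for Cacna2d1 (0.025) and Thbs2 (0.00034) with Gpc4 against Alone. The same held for Thbs2 with TSP1 against Gpc4 (9.1e-05), and of these only the last passed after adjustment (limma). With TSP1 the difference of this Lrp1 probe set from Alone was -0.13 (95% interval -0.37 to 0.11). The further probe set 1396767_at lay below the array medians, between 5.49 and 5.63, and its differences were -0.06 with TSP1 and -0.02 with Gpc4, so the 2 probe sets did not give the same size of difference.

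Itgb1 encodes the integrin β1 chain, which pairs with several α chains that recognise thrombospondins. Its probe set 1368819_at had log2 values of 10.66 and 10.55 with TSP1, 10.82 and 10.72 with Gpc4 and 10.59 and 10.56 in Alone. The Gpc4 arrays were above all others, by 0.23 in culture 2 and 0.16 in culture 1 over Alone. The difference was 0.20 (standard error 0.09, 95% interval -0.02 to 0.41) and did not pass (adjusted p = 0.748 from limma), and with TSP1 it was 0.03 (95% interval -0.18 to 0.24). The probe set 1387346_at had 9.53 and 8.99 with TSP1, 9.61 and 9.15 with Gpc4 and 9.20 and 9.10 in Alone. Here the arrays of culture 2 were above those of culture 1 in every group, and the difference between Gpc4 and Alone of 0.23 (95% interval -0.24 to 0.70) was within that spread.

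Cd36 encodes a scavenger receptor for the type 1 repeats of thrombospondins, found on macrophages, microglia, endothelial cells and platelets. Its log2 values were 3.30 and 3.49 with TSP1, 3.27 and 3.11 with Gpc4 and 3.41 and 3.07 in Alone. All 6 were far below the array medians, and none is shown to be above background. The difference of 0.16 between TSP1 and Alone had opposite signs in the cultures, -0.11 in culture 2 and 0.42 in culture 1. Of 9 microglia and macrophage markers 7 also had a mean below the array medians, and 0 of 9 changed with TSP1 or Gpc4.

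**Figure D3:**
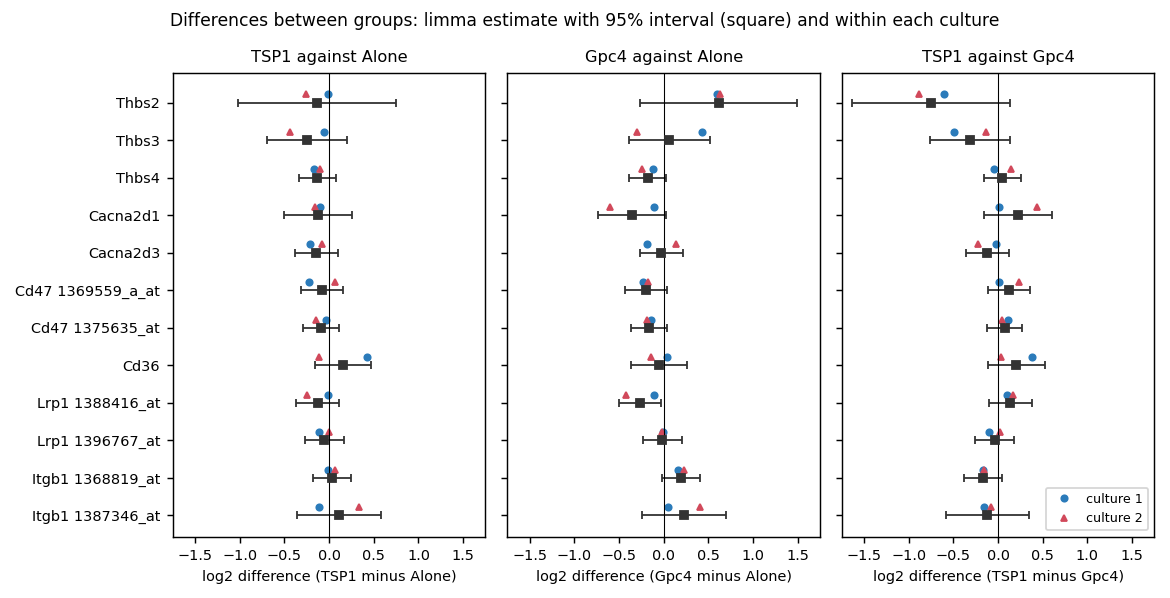
Log2 difference (x axis) for each of the 12 probe sets (y axis) between TSP1 and Alone, Gpc4 and Alone, and TSP1 and Gpc4. Squares are limma estimates with 95% intervals from the fit without the replicate block. Circles are the difference within culture 1 and triangles within culture 2. Of the 36 intervals 35 include 0, and the exception is Lrp1 1388416_at with Gpc4 against Alone (-0.50 to -0.03).

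Of the thrombospondin genes, Thbs3 and Thbs4 gave signals below the array medians throughout. Thbs4, which encodes a thrombospondin found in muscle, tendon and reactive astrocytes, had log2 values of 4.71 and 4.63 with TSP1, 4.57 and 4.68 with Gpc4 and 4.81 and 4.80 in Alone. The values of both treated groups were below those of Alone without overlap, by 0.14 (TSP1) and 0.18 (Gpc4) on the log2 scale, and neither difference passed (adjusted p of 0.985 and 0.761 from limma). Thbs3, whose product assembles into pentamers like that of Thbs4, had 4.43 and 4.18 with TSP1, 4.57 and 4.67 with Gpc4 and 4.87 and 4.24 in Alone. Its 2 Alone arrays lay 0.63 apart, which is more than any difference between its groups. All values of both genes were below the array medians, and none is shown to be above background.

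Thbs2 had the widest spread over the arrays of the 12 probe sets. It encodes a thrombospondin built like TSP1, a trimer that fibroblasts and immature astrocytes secrete. Its log2 values were 6.08 and 5.43 with TSP1, 6.97 and 6.04 with Gpc4 and 6.34 and 5.44 in Alone. The values on the TSP1 and Alone arrays of culture 1 were below the array medians and are not shown to be above background. The differences of Thbs2 that use these arrays carry the same limit. In every group culture 2 was above culture 1, by 0.65 with TSP1, 0.93 with Gpc4 and 0.90 in Alone, and within each culture Gpc4 was the highest. TSP1 was below Alone in culture 2, and in culture 1 they differed by only 0.01, the last decimal deposited. Over the 6 arrays its SD was 0.58, larger than that of 99.6% of all probe sets.

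Culture 2 exceeded culture 1 by 0.83 in Thbs2 (standard error 0.08, 95% interval 0.63 to 1.02), a 1.77-fold difference with an adjusted p = 0.0055 from limma in a fit with group and culture. Of the 12 probe sets 1 passed, against 0.561% of all probe sets (0.432% higher in culture 2), and 2 of 12 had an unadjusted p under 0.05, against 11.3%. Leaving out any single array kept the difference between 0.78 and 0.92, but with 1 array fewer no probe set passed at all (adjusted p for Thbs2 between 0.576 and 0.705). The probe set 1387346_at of Itgb1 had a difference of 0.37 with an unadjusted p = 0.0060 and an adjusted p = 0.242. Culture 2 was the higher in all 3 groups for 3 of 12 probe sets (Thbs2 and both of Itgb1), where 13.9% of all probe sets were, and the lower in all 3 groups for 2 of 12 (Cacna2d1 and Lrp1 1396767_at), where 17.5% were.

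Of the markers of fibroblasts and mural cells, which also express Thbs2, some moved between the cultures as well. Of 9 such markers 3 were higher in culture 2 (limma), against 0.432% of all probe sets, and 0 were lower. The 3 were the matrix genes Lum (log2 difference 1.79), Dcn (1.54) and Postn (0.71). Pdgfrb (-0.10) and Acta2 (-0.05) were below 0 and did not pass. The median of the 9 markers was 0.71, with 7 of 9 above 0, where the median of all named genes was 0. The summed linear signal of the 9 markers was 1400 to 1613 on the 3 arrays of culture 2 and 907 to 997 on the 3 arrays of culture 1. No marker was at 0 on this scale, and the lowest, Lum on the TSP1 array of culture 1, had a log2 value of 3.49. In culture 1, Lum lay below the array medians on every array and Dcn on the TSP1 and Alone arrays. These values are not shown to be above background. Markers of microglia and macrophages went the other way, with 9 of 9 below 0 and a median of -0.45. Lower in culture 2 were 3 of 9 (limma), where 0.561% of all probe sets passed in either direction. These were the complement genes C1qc (-1.32, adjusted p = 0.0047), C1qb (-1.09, adjusted p = 0.0066) and C1qa (-0.99, adjusted p = 0.022). On every array of culture 2 these 3 genes lay below the array medians and are not shown to be above background. The part of these cells in the Thbs2 difference was not tested. Of 14 measured genes in the list of other secreted matrix proteins that signal to cells, 11 had a difference above 0 and 3 below 0. Higher in culture 2 were 5 of 14 (limma), against 0.432% of all probe sets, and 0 were lower. The 5 were Ccn2 (1.09), Tnc (1.04), Sparc (1.00), Ccn3 (0.92) and Postn. The lowest difference was that of Spp1 (-0.41, adjusted p = 0.105 from limma).

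**Figure D4:**
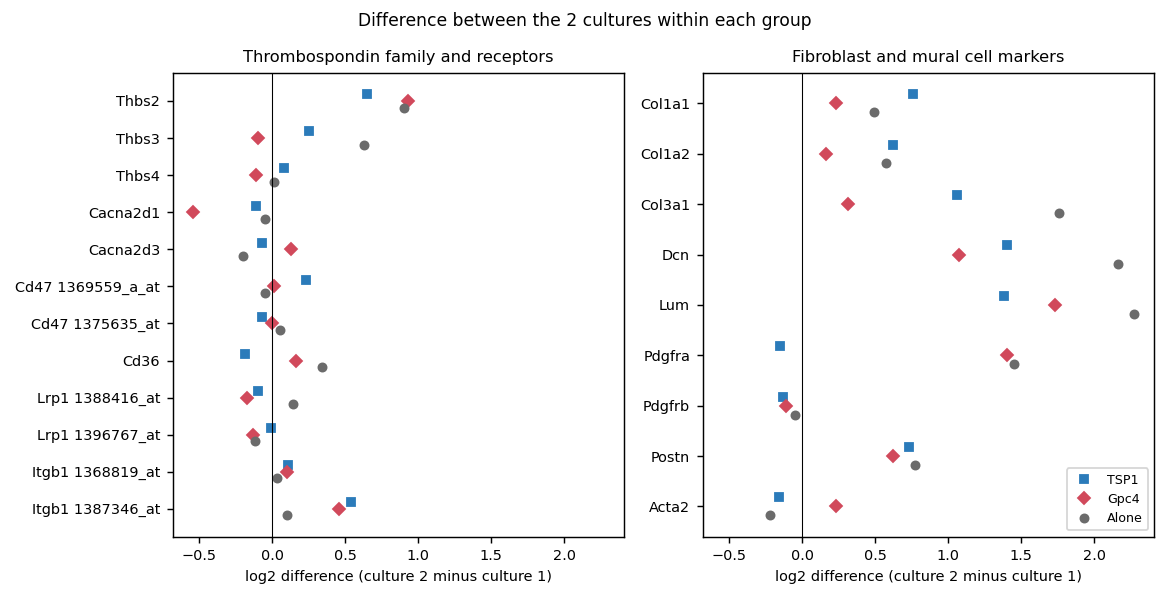
Log2 difference between culture 2 and culture 1 (x axis) within TSP1 (squares), Gpc4 (diamonds) and Alone (circles), for the 12 probe sets at the left and for 9 markers of fibroblasts and mural cells at the right. Thbs2 lies between 0.65 and 0.93 in all 3 groups, and Lum between 1.38 and 2.27.

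Between the treatments, Thbs2 had a log2 difference of 0.62 with Gpc4 against Alone (standard error 0.38, 95% interval -0.27 to 1.498), and the cultures gave 0.63 (culture 2) and 0.60 (culture 1). It did not pass (adjusted p = 0.797 from limma, and 0.104 with the culture as a replicate block). With the block it did when only probe sets averaging 6 or more were tested (adjusted p = 0.040 from limma). Thbs2 averaged 6.05 and met that filter only through the Gpc4 group (6.505, against 5.89 in Alone and 5.755 with TSP1). No conclusion is drawn from this call. None of the 12 probe sets changed with Gpc4 (0.0838% of all probe sets did; 1 of 12 at an unadjusted p under 0.05, against 6.88%), and 0 of 12 did with the block, against 0.206%. The Gpc4 and Alone arrays did not overlap in 6 of 12, against 35% of all probe sets. TSP1 against Alone gave -0.14 for Thbs2 (95% interval -1.02 to 0.75), with -0.26 in culture 2 and -0.01 in culture 1.

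Set directly against Gpc4, TSP1 had a Thbs2 value lower by 0.75 on the log2 scale (standard error 0.38, 95% interval -1.63 to 0.13), with -0.89 in culture 2 and -0.61 in culture 1. The 2 groups overlapped when the cultures were pooled. Without the block it did not pass (adjusted p = 0.995 from limma), and with the replicate block it did (standard error 0.10, adjusted p = 0.039), as 1 of 12 probe sets, against 0.258% of all probe sets (0.226% lower). Without the block 0 of 12 passed, against 0.0612%, and 0 of 12 had an unadjusted p under 0.05, against 4.51%. The TSP1 and Gpc4 arrays did not overlap in 5 of 12, against 30.2% of all probe sets. With the block and any single array left out, the Thbs2 difference lay between -0.88 and -0.62. Such a fit leaves a group with a single array, too few to judge whether the call holds. The fibroblast markers Lum (-1.95) and Dcn (-1.77) were lower with TSP1 than with Gpc4 in the fit with the block (adjusted p of 0.0086 and 0.026, limma). Postn was higher (0.87, adjusted p = 0.013), and Pdgfra differed by -1.355 and did not pass (0.354). The 9 fibroblast and mural cell markers had a median of -0.035 between TSP1 and Gpc4, with 4 above 0 and 5 below 0. Lum and Dcn lay below the array medians on both TSP1 arrays, where they are not shown to be above background. Their differences that use these arrays carry the same limit. Against Alone, Lum and Dcn differed by -1.635 and -1.49 with TSP1 and by 0.31 and 0.275 with Gpc4. Thbs2 differed from Alone by -0.135 with TSP1 and 0.615 with Gpc4. None of these differences from Alone passed over all probe sets, with or without the block. The endothelial marker Kdr, a VEGF receptor, was lower with TSP1 than with Gpc4 as well (-1.13, adjusted p = 0.017 with the block and 0.109 without it, limma). It differed from Alone by 0.83 with Gpc4 and by -0.3 with TSP1, and neither passed with or without the block. Of the 6 measured endothelial markers 5 had a mean below the array medians. The 6 had a median of -0.08 between TSP1 and Gpc4, with 2 above 0 and 4 below 0. The astrocyte and Müller glia markers Fgfr3 and Gfap differed by -0.59 and -0.57 and did not pass (adjusted p of 0.088 and 0.171 with the block). Both lay below the array medians on all 6 arrays and are not shown to be above background. The 9 markers of their list had a median of -0.015 between TSP1 and Gpc4, with 4 above 0 and 5 below 0. Over the 9 fibroblast and mural cell markers the summed linear signal was 1400 and 997 with TSP1, 1487 and 974 with Gpc4 and 1613 and 907 in Alone. On the linear scale the brightest markers, Postn and Acta2, weigh most. Similar sums thus do not mean that each marker was similar. The part of these cells in the Thbs2 difference between TSP1 and Gpc4 was not tested.

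The values of Thbs2 over the 6 arrays were followed most closely by those of Aldh1a1 (Pearson r = 0.98), Ppil3 (0.98) and Sertm1 (0.98), and 124 named genes reached an r of 0.9. Thbs2 was singled out for this after its values had been seen, and the likeness is a description over arrays that share 2 cultures.

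Genes that act with these receptors or beside the thrombospondins were described from 4 lists. Of 14 other matrix proteins that signal to cells and secreted synapse-inducing proteins, 0 changed with TSP1 and 0 with Gpc4 by limma. Postn, a matrix protein of fibroblasts, had log2 values of 9.16 and 8.43 with TSP1, 8.24 and 7.62 with Gpc4 and 8.19 and 7.42 in Alone. Its difference between TSP1 and Alone was 0.99, which passed only with the replicate block (adjusted p = 0.985 without it and 0.040 with it). Tnc, which encodes tenascin C, had 8.88 and 7.74 with TSP1, 7.03 and 6.26 with Gpc4 and 7.88 and 6.67 in Alone. TSP1 was above Gpc4 by 1.67 in Tnc, again past the threshold with the block (adjusted p = 0.0024) and not without it (0.833). Sparcl1, which encodes the synapse-inducing protein hevin, stayed between 8.40 and 8.66 on the 6 arrays. Fbln1 (log2 difference -0.38 with TSP1 and -0.26 with Gpc4) and Spp1 (0.56 with Gpc4) had the smallest p otherwise and did not pass.

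Of 14 other subunits of voltage-gated calcium channels, with which α2δ proteins assemble, 0 changed with either protein. Their median log2 difference was -0.04 with TSP1 and -0.13 with Gpc4, where all named genes had -0.005 and -0.01. With Gpc4 11 of the 14 lay below 0. Cacnb4, a cytoplasmic β subunit, had log2 values of 6.61 and 6.48 with TSP1, 6.03 and 6.00 with Gpc4 and 6.26 and 6.11 in Alone. TSP1 arrays were the highest and Gpc4 arrays the lowest, and the TSP1 difference of 0.36 from Alone did not pass (adjusted p = 0.985 from limma). Cacna1e, which encodes the pore of R-type channels, differed by -0.32 with TSP1 and -0.25 with Gpc4. Cacna1s differed by -0.31 with Gpc4, and none of these passed. Both genes lay below the array medians on every array.

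Of 13 other integrin chains 0 changed with either protein. The smallest p with TSP1 belonged to Itga1, which pairs with β1 (log2 difference 0.62, 5 of 6 arrays below the array medians). The next was that of Itgav, which encodes the αv chain (0.25). With Gpc4 the smallest belonged to Itga7 (-0.26) and Itga8 (-0.28, below the array medians on every array). Of 20 genes of the LDL receptor family, scavenger receptors and other partners of the receptors 0 changed as well. Sirpa, which encodes the SIRPα protein that CD47 binds on other cells, had log2 values of 8.59 and 8.55 with TSP1, 8.23 and 8.21 with Gpc4 and 8.66 and 8.51 in Alone. The Gpc4 arrays were below all others, and the difference of -0.37 from Alone did not pass (standard error 0.09, unadjusted p = 0.0044, adjusted p = 0.480 from limma). Sorl1 had a difference of 0.23 with Gpc4, and Lrp4 and Stab1 had 0.25 and -0.44 with TSP1, and none of these passed. Lrp4 and Stab1 lay below the array medians on every array.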

How the data were processed

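The arrays were Affymetrix rat genome expression arrays. The authors made the deposited log2 values in Expression Console by RMA, which corrects background, normalizes across arrays and gives a single value for a probe set, here rounded to 2 decimals. Its version is not given in the sources used here. Values were used as deposited, with no filter, on all 6 arrays, and groups follow the sample labels. Tests used limma (version 3.58.1, under R 4.3.3) with lmFit and eBayes, a mean for each group, 3 residual degrees of freedom and two-sided p-values. The platform table gives 20826 probe sets a single symbol, 436 several and 9780 none, and only the first kind was named. All 9 measured genes have the same symbol in RefSeq, the source of the promoter windows. The methods describe 2 separate RGC cultures. Same-numbered arrays deviated together (correlations of 0.37 for TSP1 with Gpc4, 0.35 for TSP1 with Alone and 0.29 for Gpc4 with Alone), so the number was read as the culture and served as a replicate block in a further fit with 2 residual degrees of freedom. Culture age is 12 days by the labels and at least 7 by the methods. Each probe set of the genes is named. From each list, genes past the threshold with or without the block are named, or else the 2 of smallest p for each protein, and of marker lists the defining genes. Genes and lists were chosen with earlier results of these data known. The fit was tested on simulated data. Alternatives were other scalings, filters on dim probe sets, a trended variance, only the groups compared, the methods' t-test, a mean per gene, the replicate block and leaving out each array. The methods name a t-test for pairwise comparisons in general, run here unpaired, and name no test for the arrays beyond Expression Console. Plots were made with matplotlib 3.10.9 (Python 3.11.15).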

Additional observations from a re-analysis of the deposited data

Results flagged for a closer look

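Thbs2 was singled out because its differences from Alone had opposite signs with the proteins in each culture, although neither passed (adjusted p of 0.988 with TSP1 and 0.797 with Gpc4, limma). With TSP1 they were -0.26 in culture 2 and -0.01 in culture 1, the second no larger than the last decimal deposited, and with Gpc4 they were 0.63 and 0.60. The difference itself, TSP1 minus Gpc4, was -0.75 and did not pass (adjusted p = 0.995 from limma). It passed with the replicate block (adjusted p = 0.039 from limma). With the block and any single array left out, the difference lay between -0.88 and -0.62. Such a fit leaves a group with a single array, too few to judge whether the call holds.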

How the results depend on the processing

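No difference past the threshold changed its sign under the alternatives run. For the 12 probe sets described here, the count past the threshold stayed 0 for TSP1 against Alone under every alternative, by limma and by the methods' t-test. For Gpc4 against Alone it was 2 with the unadjusted methods' t-test (Cd47). It was 1 with the replicate block over probe sets averaging 6 or more (Thbs2, which met that filter only through its Gpc4 group). For TSP1 against Gpc4 it was 1 with the replicate block, with or without that filter (Thbs2). For culture 2 against culture 1 the count of 1 was 0 to 0 when an array was left out. The replicate block changed no other call of the 12. Over all probe sets, the count for TSP1 against Alone, 0, was 4 with the replicate block, 8 with the block and the filter, 1280 with the unadjusted methods' t-test and 0 to 1 without an array (1 without Alone replicate 1). The count for Gpc4 against Alone, 26, was 49 with a trended variance, 64 with the replicate block, 90 with the block and the filter, 13 with only these 2 groups, 1704 with the unadjusted methods' t-test, 0 after Benjamini-Hochberg and 2 to 13 without an array. The count for TSP1 against Gpc4, 19, was 31 with either filter on dim probe sets, 39 with a trended variance, 80 with the replicate block, 100 with the block and the filter, 1433 with the unadjusted methods' t-test, 0 after Benjamini-Hochberg and 2 to 13 without an array. The count for culture 2 against culture 1, 174, was 264 with a trended variance and 0 without any single array. Leaving out an array leaves fewer residual degrees of freedom, and the cause of the other shifts was not tested. The block with 1 array left out was added after the data were seen.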
